A study of Mus musculus with 24 samples.

Results

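The genes described here carry out the synthesis of sterols and fatty acids, set its rate, and export cholesterol from the cell. They were chosen as a list of 32 genes by role: 17 enzymes of sterol synthesis, 4 genes of control and transport, 3 of efflux and 8 of fatty acid synthesis. A gene was followed through the probeset that names it alone, and where several did, through the brightest of them on average. On that rule 31 of the 32 were measured, among 18820 genes in all. Acat2, whose enzyme makes acetoacetyl-CoA, had no such probeset.

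RNA of 8 mouse cell types was measured on Affymetrix Mouse Gene 1.0 ST arrays, with 3 arrays for each type and 24 in all. iPSC were induced pluripotent stem cells, kept on inactivated embryonic fibroblasts with leukaemia inhibitory factor, and iPS-MG were GFP-positive microglia derived from such stem cells. The microglia prepared from mice were neonatal (neo-MG, postnatal day 5) and adult (ad-MG). Those 4 groups carried the Cx3cr1gfp/+ allele on C57BL/6NCr, in which the coding sequence of a green fluorescent protein replaces a copy of the fractalkine receptor gene Cx3cr1. Macrophages of bone marrow (bm-Mac) and of the peritoneum (p-Mac) and dendritic cells (DC), all from adult mice, and neural stem cells (NSC) of embryonic days 15 to 18, were labelled C57BL/6NCr with no such allele named. The age given for iPSC and iPS-MG was adult. The Cx3cr1gfp/+ allele and the cell type therefore cannot be told apart where microglia are set beside the other myeloid cells. The same holds for neo-MG beside NSC and for NSC beside iPSC. The labels name GM-CSF, M-CSF and IL-3 in the medium of cells called gMG, a name they do not define. The labels do not state that the replicates were separate animals or cultures. A p-value here therefore rests on the spread among these arrays alone, and that spread may be technical.

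Cholesterol is built from acetyl-CoA. The mevalonate branch makes isoprenoid units and joins them to farnesyl pyrophosphate, and the later branch joins these to squalene, closes the rings and trims lanosterol to cholesterol. When membranes are short of sterol, the factor SREBP2 (gene Srebf2) leaves the endoplasmic reticulum and switches on nearly all of these enzymes together, while INSIG1 holds it back when sterol is plentiful. SREBP1 (Srebf1) acts more on fatty acid synthesis. When sterol is in excess, oxysterols activate the liver X receptors, LXRα (Nr1h3) among them, which switch on the exporters ABCA1 and ABCG1. Macrophages and microglia also take in much cholesterol from lipoproteins, dead cells and myelin debris.

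Markers bore out some labels and were mixed for others. Lists are given as mean gene-centred levels, each value minus the gene's mean over the 8 cell types. Microglia markers were at 1.52 in ad-MG, 0.895 in iPS-MG and 0.857 in neo-MG, and at -0.061 or lower in the other groups. Peritoneal macrophage markers were highest in p-Mac, at 2.88. Dendritic cell markers were at 1.63 in DC and 1.80 in p-Mac. The pluripotency genes Pou5f1 and Nanog were high in iPSC only (at 11.8 and 13.1), but Sox2, of the same list, was at 10.7 in NSC. Myeloid genes such as Csf1r, Ptprc and Spi1 were high in the 6 myeloid groups. NSC had Nes at 11.1, Pax6 at 9.27 and Sox2 at 10.7, but Hes5 was at 9.05 there and at 9.20 in p-Mac, and Sox1 at 9.14 and 9.13. In DC the defining genes Flt3 (7.08) and Zbtb46 (8.21) were close to p-Mac (7.39 and 8.01), Itgax was at 13.2, and H2-Aa (11.3) was below bm-Mac (12.5) and p-Mac (12.3). The 5 granulocyte markers were higher in bm-Mac than in neo-MG, ad-MG, p-Mac and DC, among them Mpo at 11.9 and Ngp at 12.5, and the 6 fibroblast markers were higher in ad-MG than in neo-MG and bm-Mac, with Col1a1 and Dcn at 12.4 and 12.7. As a list, fibroblast markers were at 2.42 in ad-MG and 0.47 in iPSC, which were kept on fibroblasts, and below 0 in the other groups. B cell markers were highest in p-Mac. What part these genes' source cells had in the values below was not tested. In whole samples, fewer cells of a type and less RNA per cell cannot be told apart.

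A promoter window of 250 bases before to 50 after the start was found in RefSeq (GRCm38.p6) for 24 of the 32 genes. Windows are shown for 2 genes chosen for holding a searched motif. Of the 14 sterol enzymes with a window, Hmgcs1, an enzyme of synthesis, alone held the sterol element in the exact letters searched. Other forms of the element were not searched. Abca1, the exporter, held only a looser form of the repeat described below, not the repeat as first searched. The sterol element and the repeat are therefore in these windows by selection. Capitals in Hmgcs1 mark the sterol element TCACNCCAC and the box CCAAT on either strand. In Abca1 they mark a match, on the opposite strand, to the direct repeat bound by liver X receptors (DR4), searched with its first letter left free.
Hmgcs1, chr13:119690101-119690400, plus strand: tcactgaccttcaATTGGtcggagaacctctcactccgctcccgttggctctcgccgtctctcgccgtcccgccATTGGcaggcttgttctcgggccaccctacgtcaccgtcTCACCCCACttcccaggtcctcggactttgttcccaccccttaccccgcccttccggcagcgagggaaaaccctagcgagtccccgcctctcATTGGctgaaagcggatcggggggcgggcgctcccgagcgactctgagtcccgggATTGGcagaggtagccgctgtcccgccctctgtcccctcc
Abca1, chr4:53159846-53160145, minus strand: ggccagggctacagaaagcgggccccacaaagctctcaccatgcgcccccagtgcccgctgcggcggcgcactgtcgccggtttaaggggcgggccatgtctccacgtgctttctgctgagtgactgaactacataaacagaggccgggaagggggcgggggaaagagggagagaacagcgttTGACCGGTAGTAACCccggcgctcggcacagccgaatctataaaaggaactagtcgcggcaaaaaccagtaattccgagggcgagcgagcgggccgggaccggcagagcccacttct

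Matches were searched on both strands. A gene was counted if any of its windows held the motif. The exact letters TCACNCCAC occurred in 1 of the 14 sterol enzymes with a window, Hmgcs1, and in 1.41% of 17492 protein-coding genes. CCAAT, the NF-Y box, occurred in 13 of the 14 enzymes and in 42.3% of 17492 protein-coding genes. GGGCGG, the Sp1 box, occurred in 13 of the 14 and in 49.2% of coding genes. The DR4 repeat as first searched occurred in 0 of the 24 genes with a window and in 0.0686% of coding genes. The first letter was then left free, a search added after that result was seen. The freer repeat occurred in Abca1, Fasn and Srebf1, or 3 of 24 genes, beside 0.172% of coding genes. The 15 letters at the Fasn site (chr11:120824758-120824772) were those at the Abca1 site, and the Srebf1 site (chr11:60210639-60210653) differed from both.
Abca1 and Fasn: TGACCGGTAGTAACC
Srebf1: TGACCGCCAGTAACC
No site of one motif overlapped a site of another, apart from the repeat and its freer form, which share letters by construction. These matches describe the letters alone.

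The 16 measured enzymes of sterol synthesis took much the same order over the cell types. They were lowest in DC for 10 enzymes, in iPSC for 3, in bm-Mac for 2 and in p-Mac for 1. The highest group was neo-MG for 6, NSC for 6, iPS-MG for 3 and p-Mac for 1. Between the highest and the lowest cell type the median enzyme differed by 1.72 on the log2 scale, beside 0.92 for the median of all genes. All 3 DC arrays lay below every other array for 8 of 16 enzymes, and 2.66% of all genes had such a gap. NSC arrays lay above every other array for 6 of 16, beside 10.9% of all genes.

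**Figure D1:**
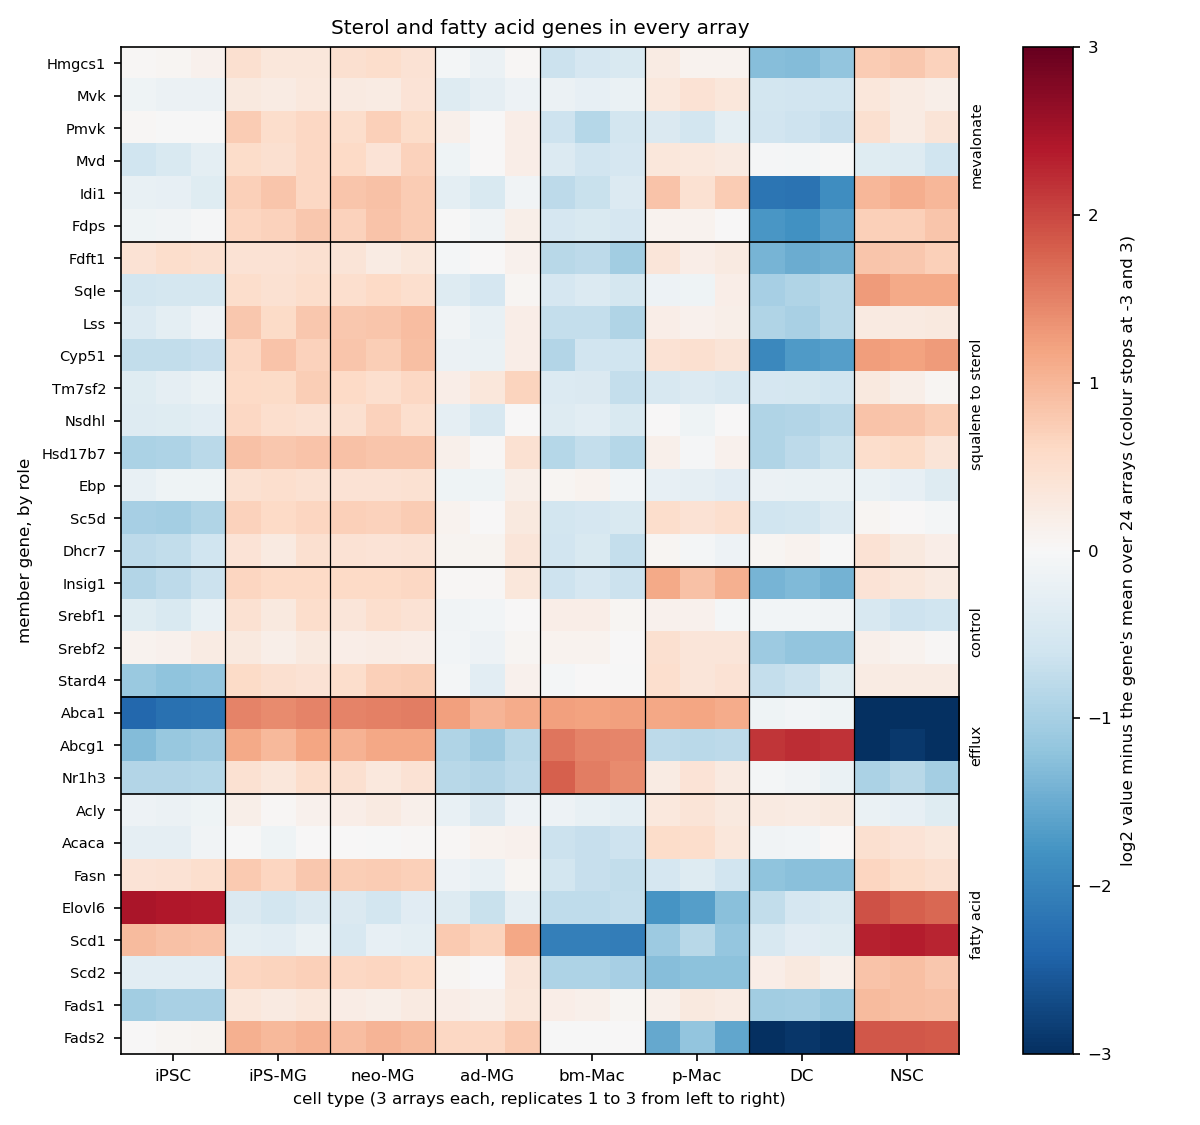
Log2 value of each of the 31 measured genes in each of the 24 arrays, after subtraction of the gene's own mean over the arrays, with genes ordered by role and arrays by cell type. Most sterol enzymes were red in iPS-MG, neo-MG and NSC and blue in bm-Mac and DC, while Abca1 and Abcg1 were darkest blue in NSC and Elovl6 was darkest red in iPSC.

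Hmgcs1, which makes HMG-CoA at the head of the mevalonate branch, had its highest log2 level in NSC, 12.06 ± 0.06 (SD, n = 3). Neo-MG followed with 11.79, 11.84 and 11.75 and iPS-MG with 11.78, 11.65 and 11.65, 2 groups whose difference did not pass the test (limma adjusted p = 0.848). Then came p-Mac at 11.56, 11.42 and 11.40, iPSC at 11.33, 11.36 and 11.43, and ad-MG at 11.25, 11.12 and 11.35. Those 3 neighbours did not pass the test either (adjusted p = 0.234 and 0.0876). bm-Mac lay at 10.67, 10.81 and 10.85, and DC, at 10.04, 10.00 and 10.12, stood below all other arrays.

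Idi1 exchanges the isoprenoid building blocks, and among the sterol enzymes it varied most. Its arrays read 8.54, 8.53 and 8.88 in DC and 9.94, 10.06 and 10.32 in bm-Mac. They read 11.59, 11.20 and 11.50 in p-Mac and 11.74, 11.82 and 11.72 in NSC, so that NSC exceeded DC by 8.62-fold. NSC, neo-MG, iPS-MG and p-Mac were the highest groups, and no neighbours among them passed the test (adjusted p from 0.104 to 0.916). Here and for the genes below, groups further apart in such an order could still differ. A second probeset for Idi1 also placed DC lowest and NSC highest, with means of 8.56 and 11.67.

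Fdps, which joins the units to farnesyl pyrophosphate, had DC values of 9.17, 9.09 and 9.26 against 11.59, 11.75 and 11.67 in neo-MG. The 3 DC arrays were again below all others, and the span was 5.63-fold. Mvk, the mevalonate kinase, spanned 1.91-fold. It was highest in p-Mac (10.01, 10.13 and 10.03), and its difference there from neo-MG did not pass the test (adjusted p = 0.467). Pmvk, which adds the next phosphate, read 9.26, 9.47 and 9.30 in neo-MG but only 8.31, 8.20 and 8.44 in p-Mac. So Mvk and Pmvk, which act in turn, did not place p-Mac alike beside neo-MG. Mvd, which removes the carboxyl group, was an exception in NSC: its arrays there (9.33, 9.31 and 9.09) lay at the level of iPSC (9.09, 9.23 and 9.40), and neighbours at this end did not pass the test (adjusted p = 0.977 and 0.735).

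In the later branch, Fdft1, squalene synthase, kept a high level in iPSC. The stem cells had 11.94, 12.03 and 11.97, beside 11.93, 11.93 and 11.97 in iPS-MG, and these arrays overlapped. Every other sterol enzyme was higher in iPS-MG than in iPSC, with no overlap of arrays. The share of all genes without overlap was not counted. Between these groups 64.5% of all genes passed an adjusted p under 0.05 in limma, in either direction. The lowest Fdft1 values were again those of DC (10.11, 10.01 and 10.06), followed by bm-Mac (10.66, 10.71 and 10.45).

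Sqle, the squalene epoxidase that is a rate-limiting step of this branch, was highest in NSC with 12.66, 12.53 and 12.53. Neo-MG had 11.88, 11.97 and 11.89, iPS-MG 11.90, 11.85 and 11.91, and p-Mac 11.24, 11.26 and 11.58. In ad-MG the 3 arrays read 11.00, 10.88 and 11.43, the third standing above the others, and in DC 10.38, 10.49 and 10.55. NSC and DC arrays did not overlap with those of any other group.

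Cyp51, the lanosterol demethylase, followed a like order with a wider range. NSC read 11.73, 11.67 and 11.74, neo-MG 11.30, 11.21 and 11.38, and iPS-MG 11.08, 11.32 and 11.15. Below them were p-Mac at 10.90, 10.94 and 10.86 and ad-MG at 10.30, 10.28 and 10.68. bm-Mac (9.60, 9.89 and 9.88) and iPSC (9.74, 9.72 and 9.79) overlapped, and DC was lowest with 8.54, 8.76 and 8.82, an 8.05-fold span.

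Lss, the cyclase that makes lanosterol, was highest in neo-MG rather than NSC (10.87, 10.90 and 10.99 beside 10.35, 10.34 and 10.36). Nsdhl, which takes part in removing methyl groups, was highest in NSC (11.81, 11.78 and 11.70) and lowest in DC (10.06, 10.08 and 10.16). Hsd17b7, its reductase partner, read 9.50, 9.53 and 9.64 in iPSC and 11.34, 11.26 and 11.30 in iPS-MG. DC, bm-Mac and iPSC were the 3 lowest groups for Hsd17b7, with no neighbours past the test (adjusted p = 0.804 and 0.36).

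The last steps departed from the common order. Sc5d, the sterol desaturase, was lowest in iPSC (9.99, 9.97 and 10.08) and had 11.51, 11.42 and 11.48 in p-Mac. Dhcr7, the reductase of the final step, was not low in DC: its values there of 9.99, 10.04 and 9.92 lay above bm-Mac (9.36, 9.47 and 9.22) and near p-Mac (10.00, 9.89 and 9.79). Ebp, the sterol isomerase, had the smallest span, 1.70-fold. From bm-Mac down to p-Mac none of its 5 neighbouring pairs passed the test (adjusted p from 0.124 to 0.89), while iPS-MG and neo-MG stood above them at 11.13, 11.18 and 11.13 and 11.10, 11.11 and 11.12. Tm7sf2, a sterol reductase, had iPSC, p-Mac, bm-Mac and DC as its 4 lowest groups, and no neighbours among them passed the test (adjusted p from 0.0809 to 0.864).

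**Figure D2:**
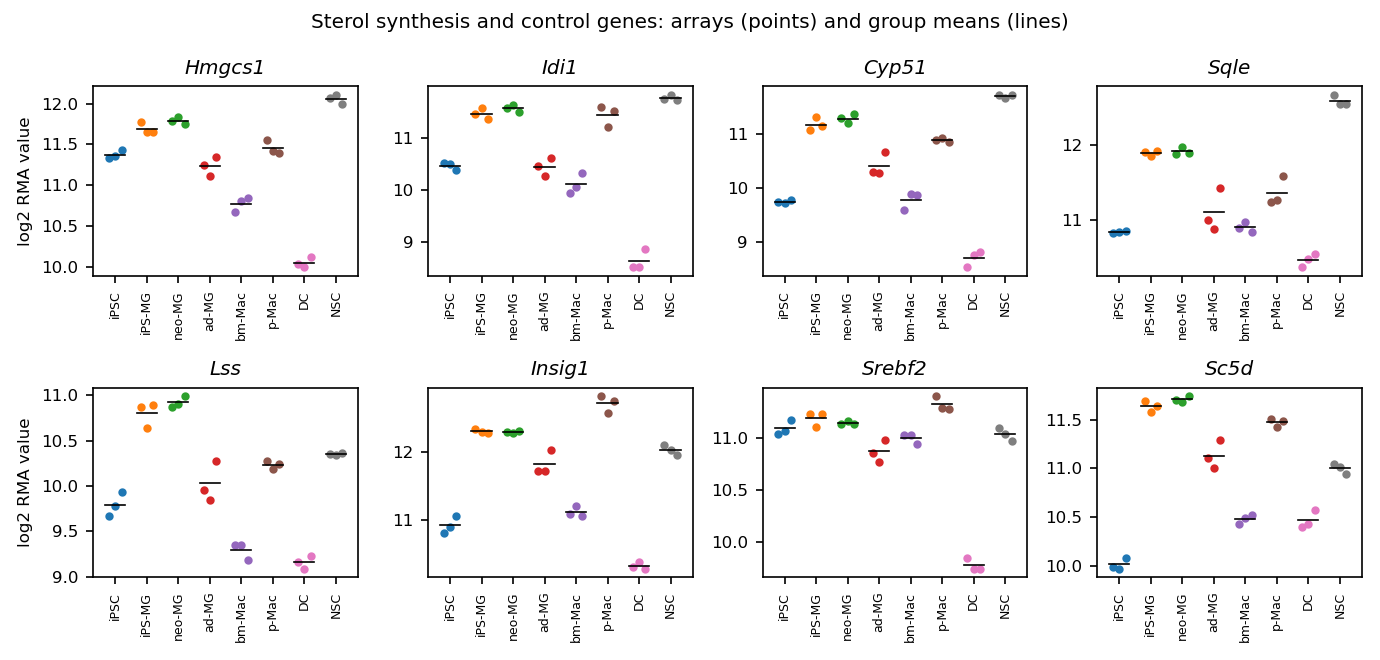
Log2 RMA value in each array (points, coloured by cell type) and group mean (lines) for 6 sterol enzymes and the control genes Insig1 and Srebf2, each panel on its own axis. DC was the lowest group for Hmgcs1, Idi1, Cyp51, Sqle, Lss, Insig1 and Srebf2, and iPSC was the lowest for Sc5d.

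The third ad-MG array was the highest of its group for 16 of 16 sterol enzymes. Its mean gene-centred level (the value minus the gene's mean over the 8 cell types, averaged over the enzymes) was 0.18, beside -0.08 and -0.13 in the first and the second. The same array was the highest of the 3 for the fatty acid genes (0.30 beside 0.12 and 0.03) and for 16 cell cycle genes (-0.04 beside -0.22 and -0.45). Fibroblast markers were not highest there (2.40 beside 2.53 and 2.33). The ad-MG comparisons below also give what changed without this array.

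Genes of control followed the enzymes in part. INSIG1 is both a brake on SREBP and a product of its activity. Insig1 read 12.83, 12.58 and 12.76 in p-Mac, above the 12.30, 12.29 and 12.32 of neo-MG and the 12.34, 12.30 and 12.29 of iPS-MG. Below them it read 12.11, 12.03 and 11.96 in NSC, 11.72, 11.72 and 12.04 in ad-MG, and 11.08, 11.20 and 11.06 in bm-Mac. iPSC had 10.81, 10.90 and 11.05 and DC 10.31, 10.38 and 10.28. Apart from iPS-MG and neo-MG (adjusted p = 0.998), every neighbouring pair passed the test.

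Srebf2, the factor behind the sterol enzymes, differed little between neighbouring groups except in DC. Its 3 DC arrays, 9.84, 9.74 and 9.74, stood below all others, and the other 7 groups had means from 10.87 to 11.32 in which no neighbouring pair passed the test (adjusted p from 0.0572 to 0.933), while groups further apart in that order could differ, as neo-MG and ad-MG did by 0.27 ± 0.06 (adjusted p = 8.97e-04). Srebf1 was highest in neo-MG (9.90, 10.04 and 9.96) and iPS-MG (9.98, 9.83 and 10.06) and lowest in NSC (9.05, 8.90 and 8.94). Thus NSC, which had high sterol enzymes, had the lowest Srebf1. The probeset was not checked for which Srebf1 transcript it reads. Stard4, which carries cholesterol between membranes, was lowest in iPSC (7.93, 7.82 and 7.88), next in DC (8.32, 8.40 and 8.67), and highest in neo-MG (9.56, 9.75 and 9.77).

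Efflux genes took another order. Abca1, which loads cholesterol onto apolipoproteins, read 12.97, 12.98 and 13.00 in neo-MG and 12.95, 12.90 and 12.96 in iPS-MG. bm-Mac had 12.69, 12.68 and 12.69, p-Mac 12.62, 12.66 and 12.59, and ad-MG 12.70, 12.50 and 12.59, neighbours that did not pass the test (adjusted p = 0.429 and 0.719). DC was lower, at 11.34, 11.40 and 11.34. iPSC had 9.12, 9.23 and 9.25 and NSC 7.56, 7.36 and 7.22, so that neo-MG exceeded NSC by 48.6-fold, the widest span of the 31 genes.

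Abcg1, which passes cholesterol to mature lipoproteins, split the myeloid cells differently. DC had the highest values, 12.99, 13.05 and 13.02, followed by bm-Mac with 12.44, 12.34 and 12.30. Neo-MG, at 11.96 ± 0.07 (SD, n = 3), and iPS-MG (11.98, 11.82 and 12.03) came next. In ad-MG the arrays read 9.94, 9.78 and 10.01 and in p-Mac 10.05, 10.04 and 10.06, beside 9.54, 9.72 and 9.79 in iPSC. The ad-MG mean was above that of iPSC (adjusted p = 0.0081), though the arrays of the groups overlapped. NSC was lowest at 7.79, 7.96 and 7.77. Thus ad-MG and p-Mac had Abca1 near bm-Mac and Abcg1 far below it.

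Nr1h3, the liver X receptor that acts on both exporters, was highest in bm-Mac (10.35, 10.10 and 9.97). iPS-MG (9.02, 8.90 and 9.09), neo-MG (9.04, 8.88 and 8.99) and p-Mac (8.80, 8.97 and 8.82) did not pass the test as neighbours (adjusted p = 0.981 and 0.214), and DC had 8.50, 8.44 and 8.36. In ad-MG it read 7.73, 7.68 and 7.78, a level that overlapped with iPSC (7.67, 7.67 and 7.70) and NSC (7.61, 7.73 and 7.53). The difference between ad-MG and iPSC did not pass the test (adjusted p = 0.603).

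Of the fatty acid genes, Acly and Acaca varied least. Acly, which makes cytosolic acetyl-CoA, spanned 1.53-fold from ad-MG to p-Mac. Acaca, acetyl-CoA carboxylase, spanned 2.18-fold, from 9.36, 9.30 and 9.37 in bm-Mac to 10.55, 10.53 and 10.33 in p-Mac, and a second probeset also placed bm-Mac lowest and p-Mac highest (8.58 and 9.65 by mean). Fasn, which assembles palmitate, was high in iPS-MG (11.36, 11.23 and 11.39), neo-MG (11.32, 11.35 and 11.31), NSC (11.23, 11.14 and 11.07) and iPSC (11.00, 11.01 and 11.08). It was lower in ad-MG (10.44, 10.35 and 10.64), p-Mac (10.07, 10.19 and 10.02), bm-Mac (10.04, 9.89 and 9.85) and DC (9.37, 9.34 and 9.33). The DC arrays lay below all others.

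Elovl6, Scd1 and Fads2 spanned 15.7-fold, 20.8-fold and 31.8-fold, beside 3.94-fold for Fasn and 3.92-fold for Fads1. Elovl6, which lengthens palmitate, read 12.78, 12.74 and 12.70 in iPSC and 12.24, 12.13 and 12.06 in NSC. In the 6 myeloid groups no array exceeded 10.06, and p-Mac was lowest with 8.56, 8.68 and 9.07. Scd1, a desaturase that makes oleate, was highest in NSC (12.83, 12.89 and 12.82), then in iPSC (11.48, 11.42 and 11.38) and ad-MG (11.31, 11.20 and 11.70). Neo-MG (10.05, 10.29 and 10.23), iPS-MG (10.23, 10.21 and 10.33) and DC (10.04, 10.19 and 10.17) followed, with neighbours that did not pass the test (adjusted p = 0.951 and 0.703), p-Mac had 9.45, 9.70 and 9.38, and bm-Mac was lowest at 8.47, 8.48 and 8.46.

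Scd2, the related desaturase of brain and developing tissue, had its lowest values in p-Mac (11.19, 11.23 and 11.23) and bm-Mac (11.55, 11.54 and 11.48). DC had 12.67, 12.75 and 12.62 and ad-MG 12.52, 12.47 and 12.83, which overlapped, and neo-MG had 13.08, 13.11 and 13.07. So ad-MG ranked above neo-MG for Scd1 and below it for Scd2. These 2 genes are close relatives, and whether their probes read each other's transcript was not tested.

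Fads2, the desaturase of the first step from essential to polyunsaturated fatty acids, spanned 31.8-fold. NSC read 12.32, 12.30 and 12.29, iPS-MG 11.52, 11.43 and 11.49, neo-MG 11.38, 11.46 and 11.40, and ad-MG 11.06, 11.06 and 11.24. bm-Mac (10.43, 10.44 and 10.45) and iPSC (10.46, 10.50 and 10.52) were close, p-Mac had 8.92, 9.26 and 8.88, and DC 7.43, 7.52 and 6.99. Fads1, which acts later in the same pathway, read 12.17, 12.31 and 12.25 in p-Mac, within the range of the other macrophages and microglia, and 10.97, 10.98 and 10.90 in DC. In DC both desaturases were low, and in p-Mac Fads2 alone was.

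**Figure D3:**
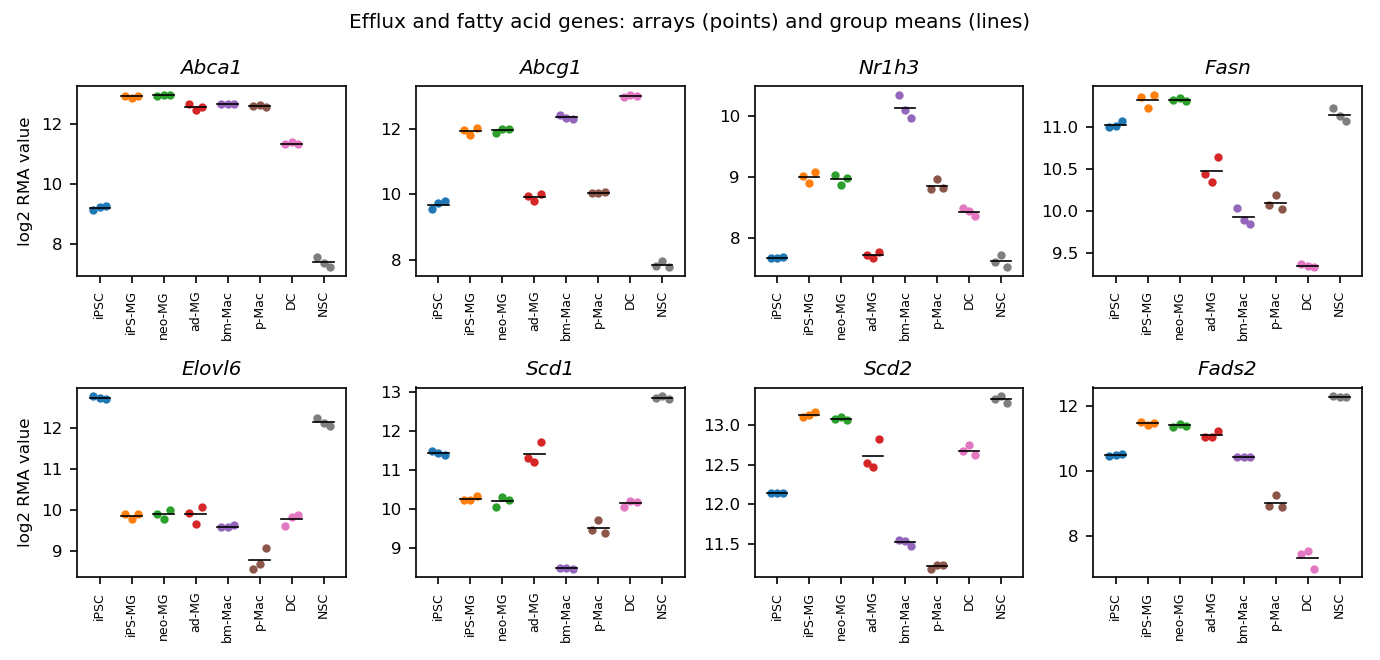
Log2 RMA value in each array (points, coloured by cell type) and group mean (lines) for the 3 efflux genes and 5 fatty acid genes, each panel on its own axis. Abca1 was high in the 6 myeloid groups, Abcg1 was near 10 in ad-MG and p-Mac, and Fads2 lay between 12.3 in NSC and 7.3 in DC.

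Synthesis, uptake and efflux were then set side by side as mean gene-centred levels, given as descriptions without a test. Sterol synthesis was at 0.60 in neo-MG, 0.57 in iPS-MG and 0.48 in NSC, near 0 in ad-MG (-0.01), and at -0.33 in iPSC, -0.54 in bm-Mac and -0.89 in DC. In p-Mac it was 0.11 as deposited and -0.04 after each array was centred on its median, so its sign there depends on the scaling. Efflux was at 1.44 in bm-Mac, 1.01 in neo-MG, 0.65 in DC and 0.22 in p-Mac, and at -0.21 in ad-MG, -1.44 in iPSC and -2.68 in NSC. The efflux level of DC came from Abcg1 (2.18), since Abca1 and Nr1h3 were at -0.11 and -0.12 there, while in bm-Mac all 3 were above 1. Bm-Mac was thus low in synthesis and high in efflux, NSC the reverse, and neo-MG was high in both. Nr1h3, a receptor and not an exporter, was at 1.58 in bm-Mac and 0.42 in neo-MG. Abca1 was at 1.22 and 1.51 in these 2 groups and Abcg1 at 1.51 and 1.12. Without the third ad-MG array the ad-MG levels were -0.09 for sterol synthesis and -0.23 for efflux.

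Uptake and intracellular handling, 12 measured genes of receptors and lysosomal transport, differed between myeloid cells and the others. The mean level was -1.87 in iPSC and -1.62 in NSC, and between 0.26 (ad-MG) and 0.96 (p-Mac) in the 6 myeloid groups. The genes did not rank the myeloid groups alike. Olr1, a receptor for oxidised lipoprotein, had a mean of 13.1 in DC and 11.0 in p-Mac and at most 6.72 elsewhere. Cd36, a fatty acid and lipoprotein receptor, had a mean of 9.06 in ad-MG beside 13.1 to 13.4 in the other 5 myeloid groups. Stab1, a scavenger receptor, was at 8.60 in DC and 13.4 in neo-MG. Lipa, the lysosomal acid lipase, lay between 13.3 and 13.5 in all 6.

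Over the 8 group means, each sterol enzyme's Pearson correlation with the mean of the other sterol enzymes had a median of 0.89, from 0.47 (Ebp) to 0.97 (Lss). For Insig1 it was 0.87, for Fasn 0.84 and for Fads2 0.76, and the median of the fatty acid genes was 0.50. Abca1, Abcg1 and Nr1h3 had 0.01, -0.38 and -0.10. These are descriptions over 8 points that share arrays and scaling, and iPS-MG and neo-MG have nearly the same values among them. The median over all genes was -0.03.

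**Figure D4:**
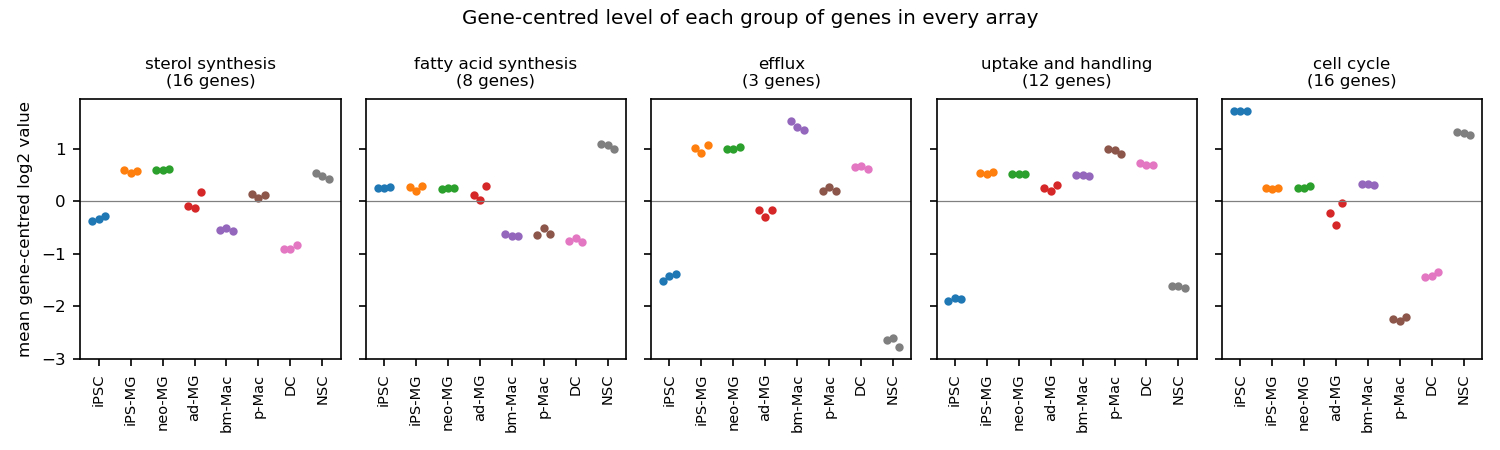
Mean gene-centred log2 value of sterol synthesis, fatty acid synthesis, efflux, uptake and cell cycle genes in each array, by cell type. Sterol synthesis was above 0 in iPS-MG, neo-MG and NSC and lowest in DC; efflux was highest in bm-Mac and lowest in NSC; p-Mac sat just above 0 for sterol synthesis, a sign that turns when arrays are centred on their medians.

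Cell cycle genes moved with the enzymes in some groups and not in others. The level of 16 such genes was 1.30 in NSC, 0.27 in neo-MG, 0.33 in bm-Mac and -1.41 in DC. It was highest in iPSC, at 1.73, where sterol enzymes were at -0.33, and lowest in p-Mac, at -2.24, where they were at 0.11. The part of growth in the sterol levels was not tested.

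In the comparisons that follow, calls needed both a limma p under 0.05, adjusted over all 18820 genes, and a difference of 2-fold or more. Differences are log2 values of the first group minus the second, with their standard error after ±. They came from 1 fit to all 24 arrays. Where arrays of 2 groups are said below not to overlap, the share of all genes without overlap was not counted.

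From iPSC to iPS-MG the exporters Abca1 and Abcg1 rose most among the 31 genes. Abca1 was higher by 3.74 ± 0.07 (13.4-fold, adjusted p = 5.19e-25), Abcg1 by 2.26 ± 0.07 and Hsd17b7 by 1.74 ± 0.08. Of the 31 genes, 13 were called higher and 2 lower, beside 10.4% and 11.8% of all genes. With no 2-fold minimum 29 of the 31 passed the adjusted p, beside 64.5% of all genes. Sterol enzymes were called higher in 7 of 16: Mvd, Sqle, Lss, Cyp51, Hsd17b7, Sc5d and Dhcr7. Sqle was higher by 1.04 ± 0.10, while Hmgcs1, Srebf1 and Fasn, at 0.32, 0.77 and 0.29, were under 2-fold with no overlap of arrays. Insig1 rose by 1.39 ± 0.08 and Stard4 by 1.66 ± 0.09, while Srebf2 differed by 0.10 ± 0.06 (adjusted p = 0.181). Elovl6 (fell by 2.89, adjusted p = 9.02e-19) and Scd1 (fell by 1.17) were the 2 called lower, and Scd2, at 0.99 ± 0.07, stopped just short of 2-fold. The median of the 31 was 0.99, beside 0.02 for all genes. Mvd, at 1.00 ± 0.09, lay at the threshold, and it came to 0.93 without iPSC replicate 1 and under 2-fold also without the first or the third iPS-MG array. Cell cycle genes were lower in iPS-MG for 13 of 16, and their part was not tested.

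Outside the list, 8 of 12 uptake genes were called higher in iPS-MG than in iPSC and 1 lower. Cd36 rose by 7.10 ± 0.11 and Msr1, a scavenger receptor, by 6.03 ± 0.08, and Vldlr fell by 1.04. Of 9 measured LXR partners and targets, 4 were called higher and 1 lower. Mylip, which targets lipoprotein receptors for breakdown, was higher by 2.51 ± 0.06 and Cyp27a1, a sterol hydroxylase, by 2.19 ± 0.09, and Apoc1, an apolipoprotein, was lower (fell by 1.17). SREBP processing genes were called in 0 of 5, and all 5 had an unadjusted p under 0.05 in limma, 4 of them higher, a threshold passed by 31.8% of all genes as higher and 34.9% as lower. Among other genes of fatty acid supply, Lpl, lipoprotein lipase, rose by 5.46 ± 0.07 and Acsl5, an acyl-CoA synthetase, by 3.18 ± 0.08, while Elovl7 fell by 2.86 and Acacb by 1.40, with 5 of 15 called higher and 3 lower. In the oxidation list 2 of 10 were called higher, Pparg by 4.27 ± 0.10 and Hadhb by 1.56 ± 0.07.

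Between iPS-MG and neo-MG none of the 31 genes was called, and 0.0266% and 0% of all genes were called higher and lower. The differences ran from -0.16 (Stard4, adjusted p = 0.808) to 0.12 (Fdft1, adjusted p = 0.785), with a median of -0.02. With limma 0 of the 31 had an unadjusted p under 0.05, beside 2.72% of all genes higher and 3.79% lower. Hmgcs1 differed by -0.10 and Sqle by -0.03, and the exporters Abca1 and Abcg1 by -0.04 and -0.02. Srebf2, Scd1 and Scd2 differed by 0.05, 0.07 and 0.05, and Srebf1, Insig1 and Fasn by less than 0.01 in size. The arrays overlapped for 9 of these 10 genes, Abca1 being the exception, and the sign changed with the processing or with 1 array left out for Sqle, Srebf1, Insig1, Abcg1, Fasn and Scd1. Of the other lists none held a called gene, but Ch25h, at 0.50 ± 0.09 (adjusted p = 0.00804), and Elovl7, at 0.36 ± 0.08 (adjusted p = 0.0388), passed the adjusted p under 2-fold with no overlap of arrays, as 0.213% of all genes passed it. An unadjusted p under 0.05 was found for 0 of 12 uptake and 0 of 5 SREBP processing genes, and for 2 of 9 LXR, 2 of 15 supply and 1 of 10 oxidation genes.

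Neo-MG had more of the sterol enzymes than ad-MG, by small amounts. All 16 differences were positive, from 0.18 (Tm7sf2, adjusted p = 0.138) to 1.11 ± 0.11 (Idi1, adjusted p = 3.26e-09), and Idi1 alone reached 2-fold. Of the 31 genes, 3 were called higher and 1 lower, beside 1.28% and 4.43% of all genes. The adjusted p alone was passed by 27 of the 31 and by 44.3% of all genes. Abcg1 was higher by 2.05 ± 0.07 (4.15-fold, adjusted p = 6.17e-18) and Nr1h3 by 1.24 ± 0.08, and Scd1 was lower (fell by 1.21, adjusted p = 5.10e-11). Hmgcs1 differed by 0.55, Sqle by 0.81, Insig1 by 0.48, Fasn by 0.85, Abca1 by 0.38, Srebf1 by 0.50, Srebf2 by 0.27 and Scd2 by 0.48, each with no overlap of arrays. Without the third ad-MG array 6 of the 31 were called in place of 4, as Lss and Cyp51, at 0.90 and 0.88 with it, came to 1.02 and 1.01. The same fit gave 0.97 for Sqle, 0.61 for Hmgcs1, 2.10 for Abcg1 and -1.07 for Scd1. Cell cycle genes moved the same way: 15 of 16 were higher in neo-MG at an adjusted p under 0.05, 1 of them by 2-fold, at a level of 0.26 to 0.30 beside -0.45 to -0.04 in ad-MG, and 24.4% of all genes were higher at that p. Astrocyte markers were at 0.38 to 0.49 beside -0.04 to 0.02, with 1 of 5 called higher, and oligodendrocyte markers at 0.25 to 0.28 beside -0.24 to -0.20, with 1 of 4. Fibroblast markers were lower in neo-MG for 6 of 6 genes, at a level of -0.18 to -0.12 beside 2.33 to 2.53 in ad-MG. The part of these lists in the result was not tested. Outside the list, Cd36 was higher by 4.07 ± 0.11 and Scarb1, a lipoprotein receptor, by 1.00 ± 0.08, and Vldlr was lower. Ch25h, which makes an oxysterol, was lower (fell by 3.68), while Apoc1 and Cyp27a1 were higher by 1.49 ± 0.11 and 1.00 ± 0.09, and Pparg, a nuclear receptor of lipid metabolism, was higher by 2.48 ± 0.10. Lpl was higher and Me1, malic enzyme, lower among fatty acid supply genes.

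Between neo-MG and bm-Mac, sterol enzymes were called higher in neo-MG for 13 of 16, and the other three, Mvk, Nsdhl and Ebp, were higher by 0.52, 0.95 and 0.41 with no overlap of arrays. Over the 31 genes 17 were called higher and 1 lower, beside 2.10% and 3.12% of all genes. With no 2-fold minimum 29 of the 31 passed the adjusted p, beside 41.3% of all genes. Scd1 had the highest difference, 1.72 ± 0.09 (adjusted p = 5.32e-14), followed by Hsd17b7 at 1.66 ± 0.08 and Lss at 1.63 ± 0.09. Insig1 was higher by 1.19 ± 0.08, Scd2 by 1.56 ± 0.07 and Fasn by 1.40 ± 0.07. The gene called lower was Nr1h3 (fell by 1.17, adjusted p = 4.29e-12), and Abcg1 was below bm-Mac by less than 2-fold (-0.40 ± 0.07). Srebf2 differed by 0.14 ± 0.06 (adjusted p = 0.0841), and Srebf1 and Abca1 were higher by less than 2-fold (0.29 ± 0.07 and 0.29 ± 0.07). The median was 1.02, beside -0.03 over all genes. Hmgcs1 and Sqle, at 1.02 and 1.00, were at 0.99 and 0.98 without the second neo-MG array and at 0.96 and 1.00, under 2-fold, without the first bm-Mac array. Sqle was at 0.98 without the third bm-Mac array. Dhcr7 was also called near the 2-fold threshold, with gene-centred levels of 0.43 in neo-MG and -0.59 in bm-Mac. Its difference was not followed with arrays left out. Granulocyte markers were lower in neo-MG for 5 of 5 genes, at -0.71 to -0.60 beside 3.72 to 3.77 in bm-Mac, and their part was not tested. Median centring moved the median of all genes by 0.10 here. Uptake genes were called in 0 of 12 and oxidation genes in 0 of 10. In limma, 7 uptake genes were higher and 5 lower at an unadjusted p under 0.05, and 3 and 4 oxidation genes, beside 21.3% and 25.9% of all genes. Ch25h was the 1 LXR gene called, higher by 2.05 ± 0.09, and Me1 was higher and Elovl7 and Dgat2 lower among supply genes.

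Against p-Mac, the sterol enzymes of neo-MG were called higher in 2 of 16 only, Pmvk (1.03 ± 0.08) and Tm7sf2 (1.03 ± 0.09). In all, 7 of the 31 genes were called higher and 0 lower, beside 6.02% and 3.10% of all genes. The adjusted p alone was passed by 25 of the 31 and by 72.4% of all genes. In limma an unadjusted p under 0.05 was reached by 22 genes in favour of neo-MG and by 3 in favour of p-Mac, beside 28% and 46.7% of all genes. The largest were Fads2 at 2.40 ± 0.10 (5.26-fold), Abcg1 at 1.92 ± 0.07 and Scd2 at 1.87 ± 0.07. Fasn (1.23 ± 0.07) and Elovl6 (1.12 ± 0.10) were also higher. Hmgcs1, Sqle and Scd1 differed by 0.33, 0.55 and 0.68, Srebf1 and Abca1 by 0.37 and 0.36, and Insig1 was below p-Mac by less than 2-fold (-0.42 ± 0.08). Srebf2, at -0.19 ± 0.06, turned to 0.02 after median centring, which moved the median of all genes by 0.21 here and the share of called genes higher in neo-MG from 66% to 79.4%. Of the uptake genes Stab1 was called higher and Olr1 and Marco, another scavenger receptor, lower. Ch25h and Pparg were higher by 2.04 ± 0.09 and 2.22 ± 0.10, as was Lpl by 1.59 ± 0.07, and Cyp27a1 was lower. Cell cycle genes were higher in neo-MG for 14 of 16 and B cell markers lower for 2 of 3, and their part was not tested.

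Against DC, neo-MG had 19 of the 31 genes called higher and 1 lower, beside 4.17% and 3.96% of all genes, and 12 of 16 sterol enzymes were among the former. With no 2-fold minimum 27 of the 31 passed the adjusted p, beside 43.4% of all genes. Fads2 was higher by 4.10 ± 0.10 (17.2-fold, adjusted p = 6.65e-22), Idi1 by 2.90 ± 0.11 (7.48-fold) and Cyp51 by 2.59 ± 0.09. Hmgcs1 was higher by 1.74 ± 0.07, Sqle by 1.44 ± 0.10, Insig1 by 1.98 ± 0.08, Fasn by 1.98 ± 0.07, Abca1 by 1.62 ± 0.07 and Srebf2 by 1.36 ± 0.06. Of the genes called higher, Tm7sf2 and Pmvk had the smallest differences. Their gene-centred levels were 0.58 and 0.60 in neo-MG beside -0.54 and -0.63 in DC. Srebf1 and Scd2 were higher by less than 2-fold (0.53 ± 0.07 and 0.40 ± 0.07). The gene called lower was Abcg1 (fell by 1.06, adjusted p = 3.61e-12). Acly, Acaca and Scd1 had differences of -0.06, 0.07 and 0.06 with overlapping arrays. The median was 1.24, beside -0.01 over all genes. In the SREBP processing list Erlin1, of the complex that acts with INSIG, was called higher by 1.36 ± 0.09. Apoe, the lipid carrier of the brain, was higher by 4.18 ± 0.06, and Cyp27a1 by 2.14 ± 0.09, while Ch25h (fell by 3.90) and Abcg4, an exporter, were lower. Me1 was higher and Elovl7, an elongase, lower (fell by 3.04). Olr1 was lower (fell by 6.93) and Stab1 higher by 4.77 ± 0.08. Cell cycle genes were higher in neo-MG for 12 of 16, and their part was not tested.

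Of the 31 genes 5 were called higher in neo-MG than in NSC and 2 lower, beside 10.5% and 8.72% of all genes. With no 2-fold minimum 26 of the 31 passed the adjusted p, beside 61.4% of all genes. All 3 efflux genes were among those higher: Abca1 by 5.60 ± 0.07 (adjusted p = 2.01e-28), Abcg1 by 4.12 ± 0.07 and Nr1h3 by 1.35 ± 0.08. Mvd was the 1 sterol enzyme called (1.02 ± 0.09), and Srebf1, at 1.00 ± 0.07, lay at the threshold and came to 0.97 without neo-MG replicate 2 and under 2-fold also without the second or the third NSC array. The 2 called lower were the desaturase gene Scd1 (fell by 2.66) and the elongase gene Elovl6 (fell by 2.26), and the desaturase genes Fads1 and Fads2, at -0.69 and -0.89, were under 2-fold. Sqle was below NSC by less than 2-fold (-0.66 ± 0.10) and Hmgcs1 likewise (-0.27 ± 0.07). Insig1, Fasn and Scd2 differed by 0.27, 0.18 and -0.24, and Srebf2 by 0.10 ± 0.06 (adjusted p = 0.172). Of the LXR list 7 of 9 were called higher, among them Apoe by 4.12 ± 0.06 and Mylip by 3.61 ± 0.06. Uptake genes were called higher in 7 of 12 and lower in 1: Cd36 by 6.91 ± 0.11 and Msr1 by 6.00 ± 0.08, and Vldlr lower (fell by 3.88). Pparg and Cpt2, a mitochondrial carnitine transferase, led 4 of 10 oxidation genes called higher, by 4.33 ± 0.10 and 2.75 ± 0.10, and Lpl was higher by 6.57 ± 0.07 and Acsl5 by 2.80 ± 0.08, with Me1 and Dgat2 lower. Cell cycle genes were lower in neo-MG for 10 of 16, and their part was not tested.

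Adult microglia, peritoneal macrophages and dendritic cells were also each compared with bm-Mac, which they therefore share as a control. Ad-MG had 3 of the 31 genes called higher and 2 lower, beside 5.38% and 3.58% of all genes. The adjusted p alone was passed by 22 of the 31 and by 57.4% of all genes. Scd1 was higher by 2.93 ± 0.09 (7.64-fold, adjusted p = 3.62e-19), Scd2 by 1.09 ± 0.07 and Hsd17b7 by 1.02 ± 0.08, and Abcg1 (fell by 2.45) and Nr1h3 (fell by 2.41) were lower. Without the third ad-MG array Hsd17b7 and Scd2 were at 0.91 and 0.98 (Hsd17b7 also came under 2-fold without the first bm-Mac array), and 3 of the 31 were called in place of 5. Hmgcs1 differed by 0.46 ± 0.07, Sqle by 0.20 ± 0.10 (adjusted p = 0.0905) and Abca1 by -0.09 ± 0.07 (adjusted p = 0.269). Insig1 and Fasn were above bm-Mac by less than 2-fold (0.71 ± 0.08 and 0.55 ± 0.07) and Srebf1 below it (-0.21 ± 0.07), and Srebf2 differed by -0.13 ± 0.06 (adjusted p = 0.0735). Cd36 was lower in ad-MG (fell by 4.31) and Ch25h higher by 5.72 ± 0.09, with Me1 higher by 2.21 ± 0.08 and Pparg (fell by 2.57), Cyp27a1 and Lpl lower. Fibroblast markers were higher in ad-MG for 6 of 6 genes and granulocyte markers lower for 5 of 5, and their part was not tested.

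P-Mac had 6 genes called higher than bm-Mac and 3 lower, beside 1.73% and 4.44% of all genes. With no 2-fold minimum 27 of the 31 passed the adjusted p, beside 64.2% of all genes. Insig1 led with 1.61 ± 0.08 (3.05-fold, adjusted p = 5.56e-15), then Idi1 at 1.33 ± 0.11 and Fdft1 at 1.17 ± 0.07, and Acaca, Cyp51 and Scd1 followed. Sterol enzymes were called higher in 3 of 16, and Sc5d and Lss stopped at 0.99 and 0.95. Hmgcs1, Sqle, Srebf2 and Fasn were at 0.69, 0.45, 0.32 and 0.17, Scd1 at 1.04 and Scd2 at -0.30. Srebf1, at -0.08 ± 0.07 (adjusted p = 0.349), turned to 0.03 after a second quantile normalisation. Abcg1 (fell by 2.31), Fads2 (fell by 1.42) and Nr1h3 (fell by 1.28) were lower, and Abca1 differed by -0.06 ± 0.07 (adjusted p = 0.429). Olr1 and Marco were higher by 4.33 ± 0.08 and 2.44 ± 0.09, Stab1 was lower, and Pparg (fell by 2.32), Elovl7 and Lpl were lower. Median centring moved the median of all genes by -0.10. It moves each gene alike, which takes Scd1, at 1.04, under 2-fold. Cell cycle genes were lower in p-Mac for 16 of 16, and their part was not tested.

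DC had 2 genes called higher than bm-Mac and 8 lower, beside 3.41% and 4.67% of all genes. The adjusted p alone was passed by 25 of the 31 and by 46.6% of all genes. Median centring moved the share of called genes that were higher in DC from 42.2% to 52.4% and the median of all genes by 0.12. Fads2 was lower (fell by 3.13, 8.73-fold, adjusted p = 2.73e-19), as were Nr1h3 (fell by 1.70), Idi1 (fell by 1.45), Abca1 (fell by 1.33), Fdps, Srebf2, Fads1 and Cyp51. Sterol enzymes were called lower in 3 of 16 and higher in 0. Cyp51, at -1.08 ± 0.09, came to -0.96 after median centring and -0.99 after a second quantile normalisation. Scd1 and Scd2 were higher by 1.67 ± 0.09 and 1.16 ± 0.07, and Abcg1 was above bm-Mac by less than 2-fold (0.66 ± 0.07). Hmgcs1 was at -0.72 ± 0.07, Sqle at -0.43 ± 0.10 and Fasn at -0.58 ± 0.07. Srebf2 fell by 1.22, and Insig1 and Srebf1 were below bm-Mac by less than 2-fold (-0.79 ± 0.08 and -0.24 ± 0.07). Outside the list Olr1 was higher by 6.34 ± 0.08 and Ch25h by 5.94 ± 0.09, with Lrpap1, Abcg4 and Elovl7, and Stab1 (fell by 4.11), Apoe (fell by 3.76), Cyp27a1 and Erlin1 were lower. Granulocyte markers were lower in DC for 5 of 5 genes and cell cycle genes for 14 of 16, and their part was not tested.

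**Figure D5:**
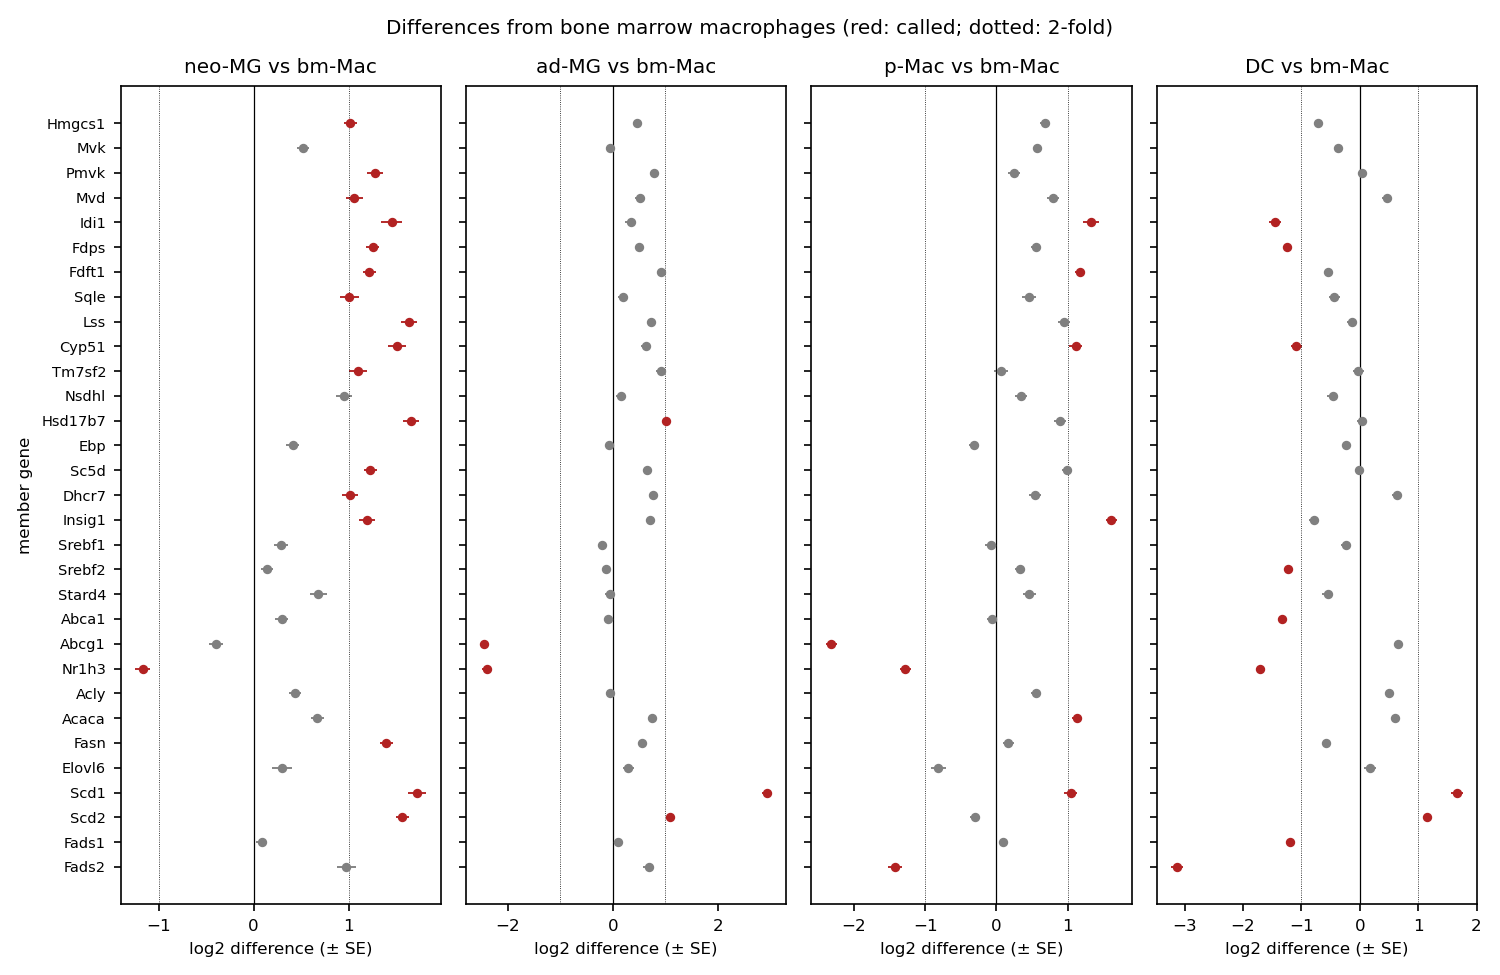
Log2 difference from bm-Mac (± standard error) of each of the 31 genes in neo-MG, ad-MG, p-Mac and DC, with genes called different in red and dotted lines at 2-fold. Sterol enzymes lay to the right of 0 in neo-MG; Abcg1 and Nr1h3 lay far to the left in ad-MG and p-Mac; Fads2 lay furthest to the left in DC, at -3.13.

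NSC and iPSC, the 2 groups that are not myeloid, differed in synthesis. NSC had 12 of the 31 genes called higher and 2 lower, beside 7.25% and 9.97% of all genes. The adjusted p alone was passed by 25 of the 31 and by 65.9% of all genes. Cyp51 was higher by 1.96 ± 0.09 (3.90-fold, adjusted p = 6.48e-16), Fads1 by 1.91 ± 0.06 and Fads2 by 1.81 ± 0.10. Sterol enzymes were called higher in 6 of 16, Sqle by 1.73 ± 0.10 among them, and Insig1 was higher by 1.11 ± 0.08, Scd1 by 1.42 ± 0.09 and Scd2 by 1.19 ± 0.07. Dhcr7 had the smallest difference of the genes called higher and lay near the 2-fold threshold. Its gene-centred levels were 0.31 in NSC and -0.70 in iPSC. Hmgcs1 and Srebf1 differed by less than 2-fold (0.69 ± 0.07 and -0.22 ± 0.07). The 2 lower were Abcg1 (fell by 1.84, adjusted p = 1.49e-17) and Abca1 (fell by 1.82). Srebf2 differed by -0.06 ± 0.06 (adjusted p = 0.451), a sign that turned to 0.02 after a second quantile normalisation, and Fasn by 0.12 ± 0.07 (adjusted p = 0.156). Apoe (fell by 3.67) and Apoc1 (fell by 3.16) were lower in NSC, and 5 of 9 LXR genes were called lower in all. Vldlr was higher by 2.84 ± 0.06 and Acss2, which makes acetyl-CoA from acetate, by 1.49 ± 0.08, and Elovl7 was lower (fell by 3.41). Slc25a20, the carnitine carrier, was lower (fell by 3.47) with Cpt2. Hadhb, an enzyme of fatty acid oxidation, was higher by 1.08 ± 0.07 and Dgat2, which makes triglyceride, by 1.01 ± 0.08, while Acacb (fell by 1.21) and Lrpap1, a chaperone of lipoprotein receptors, were lower.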

How the data were processed

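The authors deposited 1 log2 value per probeset and array, and the submitters' processing notes name RMA and Partek 2. RMA usually corrects background, brings arrays to a common distribution and summarises probes. The log base was inferred from the values (3.14 to 14.43), and the sources used here do not give the summary level or filters. Array medians ran from 7.96 to 8.21, and Pearson's r within groups from 0.9952 to 0.9986. Precision rests on the number of arrays. Scanner intensities and detection calls were not used, so no gene is called absent.

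Of 35556 probesets, 21218 named 1 gene, 1881 several and 12457 none; only the first kind was used. Platform annotation can be old; 21185 probesets matched a RefSeq gene table by Entrez ID, and 0 symbols were updated. Groups came from the labels. All 24 arrays entered 1 fit in limma 3.58.1 (R 4.3.3; lmFit, contrasts.fit, eBayes), with Benjamini-Hochberg adjustment over 18820 genes, tested on simulated data. Adjusted p-values in the text are from this fit. The alternatives were other normalisation, centring, probeset rules, dim-gene filter, variance prior, array weights, paired fits and each array left out. The text names the 3 highest and 3 lowest called genes per comparison, 10 key genes over the roles whether called or not, and up to 2 of the highest and 2 of the lowest called genes of each other list. Members, lists and rules were chosen with earlier results of these data known. Some genes of these pathways were not analysed here.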

Additional observations from a re-analysis of the deposited data

How the results depend on the processing

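Of 176 recomputed counts of called genes, 166 stayed within 1.5 times the reported count. Without the 2-fold minimum the counts rose to 29 for iPS-MG vs iPSC, 27 for neo-MG vs ad-MG, 29 for neo-MG vs bm-Mac, 25 for neo-MG vs p-Mac, 26 for neo-MG vs NSC, 22 for ad-MG vs bm-Mac, 27 for p-Mac vs bm-Mac, 25 for DC vs bm-Mac and 25 for NSC vs iPSC, as more genes can pass a looser rule. Of all genes 41.3% (neo-MG vs bm-Mac) to 72.4% (neo-MG vs p-Mac) passed that rule in these 9 comparisons. With single arrays left out, ad-MG vs bm-Mac ran from 3 (without the third ad-MG array) to 6. For single genes, 2094 of 2145 recomputed differences kept their direction and side of the threshold, 29 fell under it, 3 rose over it and 19 changed sign. Same-numbered arrays correlated at -0.226 to 0.245 in their deviations, with all 3 pairs over 0.1 in 0 comparisons. The third replicates were at 0.216 in iPS-MG vs iPSC, 0.243 in iPS-MG vs neo-MG, 0.221 in neo-MG vs ad-MG and 0.245 in neo-MG vs DC. In the other comparisons they ran from -0.226 to 0.061. Differently numbered arrays were not compared, so these values cannot settle whether replicate numbers pair the samples. A fit with the replicate block called the same genes as the fit without it, 15 of 15 for iPS-MG vs iPSC among them, in all 11 comparisons.

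Of 168 recomputed gene-centred levels 21 moved by more than 1 SD, by at most 0.153. A second quantile normalisation gave sterol synthesis at 0.54 in iPS-MG, 0.567 in neo-MG, -0.579 in bm-Mac and 0.202 in p-Mac, efflux at 0.27 in p-Mac, and fatty acid synthesis at 0.239 in iPSC and -0.505 in p-Mac. Median centring gave sterol synthesis at 0.644 in iPS-MG, 0.659 in neo-MG, -0.588 in bm-Mac, -0.044 in p-Mac and -0.811 in DC. It gave efflux at 1.071 in neo-MG, 0.068 in p-Mac and 0.723 in DC, and fatty acid synthesis at 0.328 in iPS-MG, 0.306 in neo-MG, -0.692 in bm-Mac, -0.741 in p-Mac and -0.671 in DC. The probeset of largest variance gave fatty acid synthesis at 0.243 in iPSC.

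The sign changes were in small differences, none of them called. After a second quantile normalisation Srebf1 came to 0.005 and Insig1 to -0.024 (iPS-MG vs neo-MG), Srebf1 to 0.028 (p-Mac vs bm-Mac) and Srebf2 to 0.016 (NSC vs iPSC). After median centring Srebf1 came to 0.005 (iPS-MG vs neo-MG) and Srebf2 to 0.023 (neo-MG vs p-Mac), and with array weights Srebf1 to 0.011 and Abcg1 to 0.003 (iPS-MG vs neo-MG). With single arrays left out, iPS-MG vs neo-MG ran from -0.045 to 0.002 for Sqle, -0.061 to 0.056 for Srebf1, -0.012 to 0.015 for Insig1, -0.065 to 0.04 for Abcg1, -0.032 to 0.052 for Fasn and -0.002 to 0.118 for Scd1. The cause was not tested.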

Other observations

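Some genes outside the list had group means that ran closely with it. Among 8853 genes whose group means spanned at least 1 log2 unit, the highest Pearson r with the mean gene-centred level of the sterol enzymes, over 8 group means, was that of Msmo1 (0.958), the sterol methyl oxidase of the same pathway. Gprc5b (0.949), Gm13375 (0.939), 2210408I21Rik (0.912) and Ust (0.888) followed. For Abca1 with Abcg1 the highest were Cndp2 (0.995), Vwa5a (0.995), Vps26c (0.994), Mfsd12 (0.989) and Rnh1 (0.989). These values are descriptions over 8 points, of which iPS-MG and neo-MG are nearly the same.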
